A study of Mus musculus with 4 samples.

Results

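Cytosolic heat-shock chaperones with the constitutive HSP70 gene Hspa8 were described as 10 genes, chosen by symbol: Hspa8, Hspa1a, Hspa1b, Hsp90aa1, Hsp90ab1, Dnaja1, Dnajb1, Hsph1, Hspb1 and Hspe1. All 10 were found, of 22564 protein-coding genes in the deposited expression table. The set was proposed because the deposited FPKM and count columns disagreed for Hspa8, so the levels and genotype differences of its members are given as a description. No p-value is given for a member, and the numbers of members past a threshold are printed only beside those of all genes. RNA was from pancreatic islets, which hold the insulin-producing beta cells, of 129sv mice at postnatal day 0. The 4 libraries were 2 labelled Mettl3/14nKO and 2 labelled wild-type. Mettl3 and Mettl14 encode the core of the methyltransferase that places m6A, a base mark, on mRNA. The labels do not spell out nKO and give neither the Cre driver nor the cells in which the genes were targeted. Whether replicates stem from different mice is not labelled either, so any p-value reflects variation among these 4 samples alone, possibly technical variation.

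Chaperones of the HSP70 family bind short hydrophobic stretches of unfolded proteins and release them in a cycle driven by ATP. J-domain proteins such as Dnaja1 and Dnajb1 deliver clients and start ATP hydrolysis, and HSP110 proteins such as Hsph1 exchange the nucleotide. HSP90 chaperones take over partly folded clients such as kinases and steroid receptors. Hspa8, which encodes HSC70, and Hsp90ab1 are made at all times, whereas Hspa1a, Hspa1b, Dnajb1 and Hspb1 are known for their strong induction by heat-shock factor 1. In beta cells, which make large amounts of secreted protein, these cytosolic proteins work beside the chaperones of the endoplasmic reticulum.

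Depth was low, with 1216498 and 744016 gene fragments for Mettl3/14nKO and 1255526 and 1617429 for wild-type. Fragments are the deposited estimated counts divided by the smallest step of each library. CPM scales fragments to the library total. The deposited FPKM instead scale the estimated counts, which keep the step of their library, to transcript length. The estimated count per FPKM and kilobase was 2.575 in every library. CPM and FPKM thus differ by a factor per library as well as by length. Mettl3 stood at 30 and 9 fragments in Mettl3/14nKO against 20 and 47 in wild-type libraries, and Mettl14 at 24 and 12 against 32 and 54. Neither passed the edgeR quasi-likelihood test (adjusted p = 0.849 and 0.308), and a summed level does not test a deletion of single exons. All 10 islet endocrine markers were detected in every library. Summed mesenchymal markers stood at 11750 and 8201 CPM in Mettl3/14nKO and at 5285 and 3787 CPM in wild-type libraries, with 8 of 10 called higher by edgeR, and leukocyte markers at 321 and 612 against 43.8 and 113 CPM, with 6 of 10 called higher. Endothelial markers were at 460 and 289 CPM in Mettl3/14nKO and at 1259 and 1071 CPM in wild-type libraries, with 7 of 10 called lower, and no marker of any list was at 0 in all libraries. Summed islet endocrine markers were at 57000 and 71670 CPM in Mettl3/14nKO and at 94510 and 96100 CPM in wild-type libraries, with 5 of 10 called lower. Of these 10 markers, 7 had a negative and 3 a positive log2 fold change. Summed acinar markers were at 22.2 and 55.1 against 60.5 and 63.7 CPM. Summed erythroid markers were at 38.6 and 65.9 CPM in Mettl3/14nKO and at 112 and 204 CPM in wild-type libraries. These shifts move with the genotype, and their part in the chaperone values was not tested. In such bulk RNA, fewer cells of a type and less RNA per cell cannot be told apart.

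Hspa8 was much higher in fragments in Mettl3/14nKO islets but differed little in FPKM. Hspa8 (ENSMUSG00000015656, mm10 chr9:40800984-40805200, plus strand) was covered by 1411 and 891 fragments for Mettl3/14nKO, against 668 and 824 for wild-type. Scaled to library size these were 1160 and 1198 CPM in Mettl3/14nKO and 532 and 509 CPM in wild-type libraries. The groups did not overlap on that scale, and the lower Mettl3/14nKO library stood far above the higher wild-type one. The mean was 1179 ± 26.6 CPM in Mettl3/14nKO and 521 ± 16.0 CPM in wild-type libraries (SD, n = 2 each), a ratio of 2.26. The fitted log2 fold change in fragments was 1.17 (SE 0.12). In FPKM the same gene stood at 281 and 256 in Mettl3/14nKO and at 228 and 246 in wild-type libraries. The groups did not overlap there either, but the nearest libraries were close. The means were 269 ± 17.9 and 237 ± 12.3 FPKM, a Mettl3/14nKO to wild-type ratio of 1.13, and the log2 fold change on the log2(FPKM + 1) scale was 0.18 (SE 0.19). Over all genes that scale had a median of -0.21, against 0.00 for fragments. With FPKM centred on each library's median, the log2 fold change of Hspa8 was 0.39.

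**Figure D1:**
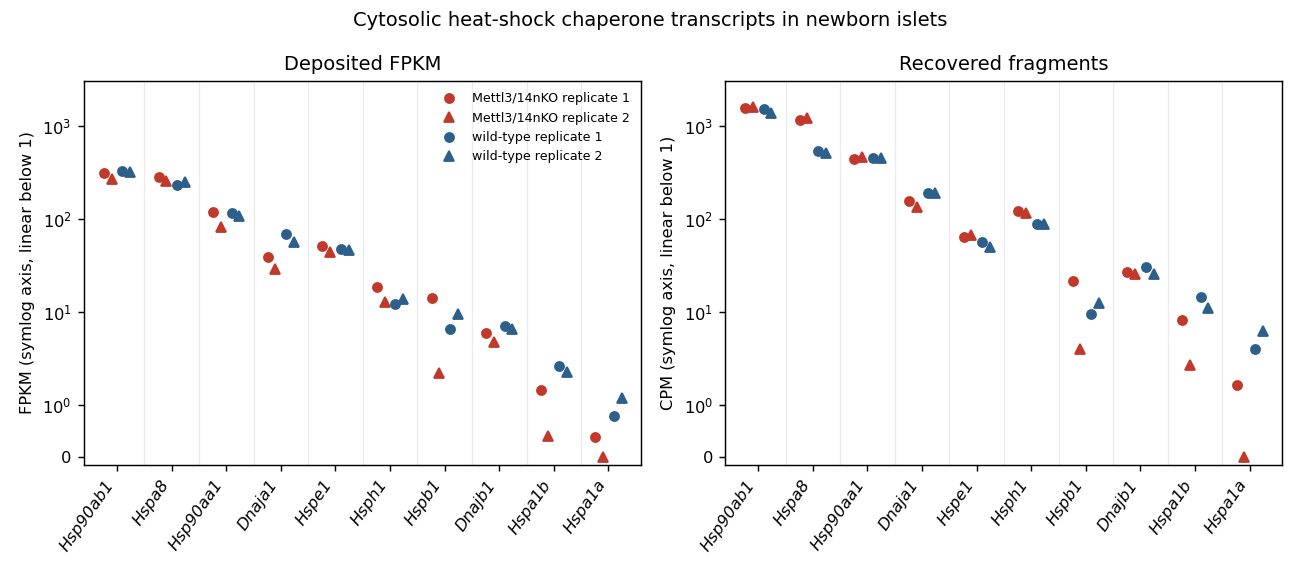
Levels of the 10 heat-shock genes in each library, as deposited FPKM (left) and as CPM of recovered fragments (right), on axes that are logarithmic above 1 and linear below. Red points are Mettl3/14nKO and blue points wild-type libraries, and circles and triangles mark replicates 1 and 2. Hspa8 separates the genotypes widely in CPM (1160 and 1198 against 532 and 509) and narrowly in FPKM (281 and 256 against 228 and 246).

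Part of the disagreement for which Hspa8 was chosen can be written as a transcript length. Another part is a shift between the scales that the median gene shares. Over all genes the median log2 fold change was -0.21 in FPKM and 0.00 in fragments. Relative to the median gene, the FPKM per fragment of Hspa8 differed by -0.76 on the log2 scale. A gene's estimated count divided by its FPKM rises with that length. Over 200 genes with a single annotated transcript, whose annotated and deposited spans were equal, the relation was a straight line in each library. For 99.5% of these genes the length read from that line lay within 5% of the annotated one. Read the same way, Hspa8 had an implied length of 2090 and 2001 bases in Mettl3/14nKO and of 1329 and 1306 bases in wild-type libraries. Replicates lay close together and the genotypes apart, a log2 difference of 0.63. Among 3454 genes with at least 50 fragments in every library, 7 had an implied length longer in Mettl3/14nKO by at least as much, Hspa8 included, and 29 differed by at least as much in either direction. Since Hspa8 was chosen for its count against its FPKM, its place among these genes follows from that choice and is a description only. The 5th and 95th percentiles of that difference were -0.31 and 0.19, and the median was 0. GENCODE M21 lists 10 Hspa8 transcripts of 357 to 3158 bases, of which 3 are protein-coding with 514 to 2394 bases. The deposited values rest on gene models that differ from these for some members, since GENCODE M21 ends Hspa8 at 40810087 and the deposited locus at 40805200, and lists Dnajb1 transcripts of 2854 and 2996 bases only, so its transcripts are a guide to these lengths and no more. An implied length between them may be a mean over the transcripts to which fragments were assigned. Which transcripts these were was not analysed here. The small nucleolar RNA genes Snord14c (chr9:40803583-40803668), Snord14d (chr9:40803995-40804080) and Snord14e (chr9:40804748-40804837) lie inside Hspa8 on the same strand. The table analysed here holds no level for them, and their part in the disagreement was not tested.

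**Figure D2:**
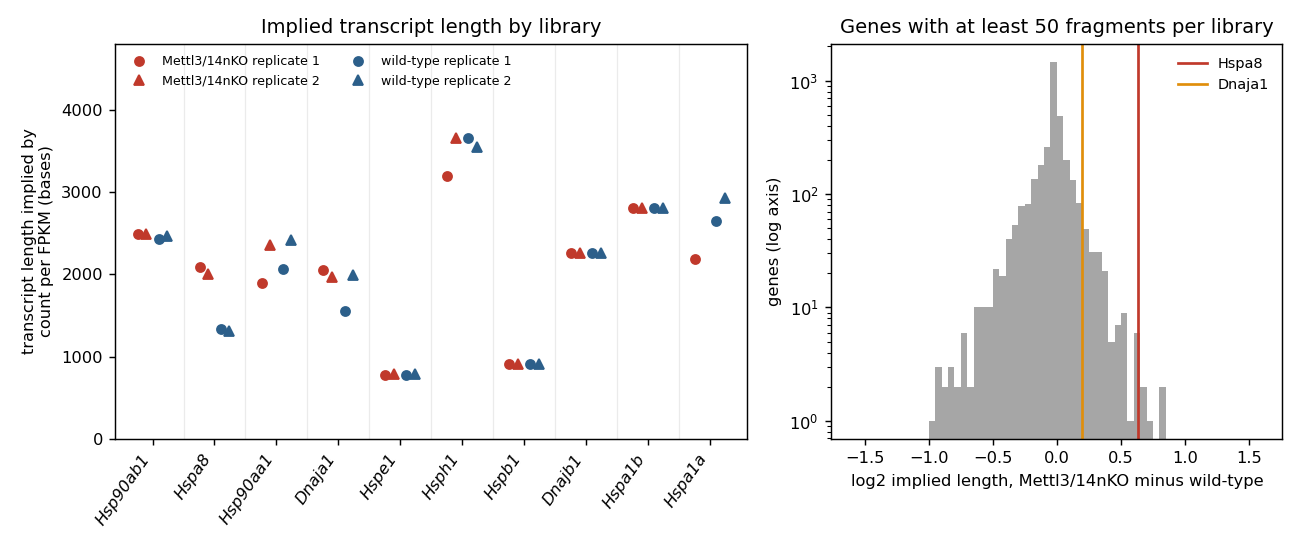
Transcript length implied by the estimated count per FPKM, in bases, for each member and library (left, colours as for the levels), and the log2 difference in implied length, Mettl3/14nKO minus wild-type, over 3454 genes (right, log axis for gene numbers). Hspb1 and Hspa1b have the same length in all 4 libraries, whereas Hspa8 stands at 2090 and 2001 bases in Mettl3/14nKO and at 1329 and 1306 bases in wild-type libraries, in the right tail, a place that follows from the choice of Hspa8 for this disagreement.

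The implied lengths of other members varied less with genotype. Hspb1 came out at 903 bases and Hspa1b at 2803 bases in every library, each the length of an annotated transcript, and Dnajb1 at 2263 bases in every library, which is neither of its GENCODE M21 lengths. Hspe1 stood at 774 and 782 bases in Mettl3/14nKO and at 780 and 783 bases in wild-type libraries, close to its coding transcript of 774 bases. Hsp90ab1 stood at 2494 and 2493 bases in Mettl3/14nKO and at 2423 and 2470 bases in wild-type libraries. These 5 genes thus had nearly the same implied length in both genotypes. Hsp90aa1 varied between replicates, with 1892 and 2358 bases in Mettl3/14nKO and 2070 and 2420 bases in wild-type libraries. Hsph1 was at 3192 and 3661 bases in Mettl3/14nKO and at 3660 and 3545 bases in wild-type libraries. Dnaja1 had 2048 and 1970 bases in Mettl3/14nKO and 1548 and 1995 bases in wild-type libraries, so that wild-type replicate 1 stood apart. Hspa1a, with few fragments, had 2181 bases in Mettl3/14nKO replicate 1, none in replicate 2 and 2648 and 2922 bases in wild-type libraries. GENCODE M21 lists only 1 transcript for it, of 2967 bases, so its implied length varied without annotated alternatives.

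By the rule for likeness, the 5 genes nearest to Hspa8 in FPKM per fragment over the 4 libraries were Csnk2a1 (Euclidean distance 0.081 in centred log2 values), Tbl2 (0.097), Gpd2 (0.18), Slc4a8 (0.22) and Zmym3 (0.24). Csnk2a1, a casein kinase 2 subunit gene, had implied lengths of 3600 and 3445 bases in Mettl3/14nKO and 2277 and 2321 bases in wild-type libraries. Its CPM were 141 and 121 in Mettl3/14nKO libraries and 159 and 155 in wild-type ones, lower in Mettl3/14nKO, while those of Hspa8 were higher. In centred log2 CPM the nearest were Tshz3 (0.14), B2m (0.17), Creg1 (0.20), Ppp1r1a (0.26) and Mest (0.29). B2m, the light chain of MHC class I, had 309 and 374 CPM in Mettl3/14nKO and 150 and 142 CPM in wild-type libraries, at an implied length of 860 bases in all 4. Its FPKM were 215 and 218 in Mettl3/14nKO, against 111 and 116 in wild-type libraries, also without overlap. Of the 5 other members deep enough to be ranked among those 3454 genes, Hsph1 came nearest in CPM, at rank 219, and Dnaja1 in FPKM per fragment, at rank 181.

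The J-domain partners of HSP70 did not follow Hspa8. Dnaja1 (ENSMUSG00000028410), a farnesylated J-protein of the cytosol, had 155 and 133 CPM in Mettl3/14nKO and 190 and 189 CPM in wild-type libraries. Both Mettl3/14nKO values were below both wild-type values, with a log2 fold change of -0.39 (SE 0.14) in fragments. In FPKM, Dnaja1 had 38.5 and 28.9 in Mettl3/14nKO islets, against 68.3 and 55.8 in wild-type islets, with a log2 fold change of -0.87 (SE 0.24), or -0.66 with centred libraries. The deposited locus of Dnaja1 (chr4:40720154-40757923) also covers Smu1 and the non-coding gene Gm6297 on the opposite strand, and Mir207 on the same strand. Smu1 itself was at 67 and 42 fragments for Mettl3/14nKO, against 90 and 81 for wild-type, and since no source used here states the strand setting of the counting, fragments of the overlap may belong to either gene. Dnajb1 (ENSMUSG00000005483, chr8:83608175-83611902), the heat-inducible J-protein HSP40, had 27.1 and 25.5 CPM in Mettl3/14nKO and 30.3 and 25.3 CPM in wild-type libraries. The groups overlapped, and the log2 fold change was -0.07 (SE 0.30) in fragments. On the FPKM scale Dnajb1 had 6.02 and 4.76 in Mettl3/14nKO libraries and 7.07 and 6.50 in wild-type ones, with a log2 fold change of -0.29 (SE 0.28), close to the median of all genes on that scale.

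Hsph1 (ENSMUSG00000029657, chr5:149614287-149636376), the HSP110 nucleotide exchange factor, was higher in fragments. It had 120 and 114 CPM in Mettl3/14nKO and 88.4 and 87.2 CPM in wild-type libraries, groups that did not overlap, with a log2 fold change of 0.41 (SE 0.16). In FPKM its values were 18.4 and 12.7 in Mettl3/14nKO islets, against 12.3 and 13.7 in wild-type islets, where the groups overlapped. The log2 fold change on that scale was 0.22 (SE 0.27), and -0.03 without Mettl3/14nKO replicate 1.

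The inducible HSP70 genes Hspa1a and Hspa1b were at the floor of detection. Hspa1b (ENSMUSG00000090877, chr17:34956436-34959819) was covered by 10 and 2 fragments for Mettl3/14nKO, against 18 and 18 for wild-type. Hspa1a (ENSMUSG00000091971, chr17:34969199-34972154) by 2 and 0 for Mettl3/14nKO, against 5 and 10 for wild-type, and alone among the members it failed the filters of both fits. Both genes were lower in each Mettl3/14nKO library than in either wild-type library. Summed over libraries, Hspa1a had a Mettl3/14nKO to wild-type ratio of 0.195 per library size, with a 95% exact counting interval of 0.0217 to 0.840. For Hspa1b the ratio was 0.488, with an interval of 0.231 to 0.961. These intervals cover counting error only. The log2 fold change of Hspa1b was -1.07 (SE 0.55) in fragments, -2.18 without Mettl3/14nKO replicate 1 and -0.63 without Mettl3/14nKO replicate 2. In FPKM, Hspa1b stood at 1.45 and 0.397 in Mettl3/14nKO and at 2.65 and 2.26 in wild-type libraries, with a log2 fold change of -0.90 (SE 0.42).

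Hspa1a and Hspa1b are close copies, and the split of fragments between them is uncertain. Their coding sequences, of 1923 and 1926 bases in the GENCODE M21 transcripts, were 99.4% identical, with 8 substituted positions and 3 gap positions. Of 1774 windows of 150 bases along the Hspa1a coding sequence, the read length of the study, 969 (54.6%) occurred unchanged in Hspa1b. Coding bases 1357 to 1416 show how little tells the copies apart. Capitals mark the 2 substituted positions.
Hspa1a: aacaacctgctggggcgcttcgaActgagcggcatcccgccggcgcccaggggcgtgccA
Hspa1b: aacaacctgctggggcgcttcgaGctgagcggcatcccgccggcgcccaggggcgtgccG
As a pair they reached 12 and 2 fragments for Mettl3/14nKO, against 23 and 28 for wild-type, or 9.86 and 2.69 CPM in Mettl3/14nKO and 18.3 and 17.3 CPM in wild-type libraries. The pair was thus also lower in both Mettl3/14nKO libraries, which differed from each other far more than the wild-type libraries did. The gene Gm20481 overlaps Hspa1a on the opposite strand and was at 0 and 0 fragments for Mettl3/14nKO, against 1 and 0 for wild-type.

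The cytosolic HSP90 genes differed little between the genotypes. Hsp90ab1 (ENSMUSG00000023944, chr17:45567775-45573271), the constitutive form, had 1554 and 1593 CPM in Mettl3/14nKO and 1503 and 1371 CPM in wild-type libraries. The groups did not overlap, but the log2 fold change was only 0.13 (SE 0.12). In FPKM it had 310 and 267 in Mettl3/14nKO libraries and 326 and 319 in wild-type ones, lower rather than higher, with a log2 fold change of -0.16 (SE 0.20) that turned to 0.05 with centred libraries. Hsp90aa1 (ENSMUSG00000021270, chr12:110690605-110702728), the more inducible form, had 432 and 462 CPM in Mettl3/14nKO and 450 and 452 CPM in wild-type libraries. These overlapped, with a log2 fold change of -0.02 (SE 0.12) in fragments, which was 0.05 without Mettl3/14nKO replicate 1. Its FPKM of 117 and 82.4 in Mettl3/14nKO islets, against 116 and 108 in wild-type islets also overlapped, and the log2 fold change of -0.18 (SE 0.23) turned to 0.03 with centred libraries. The FPKM of Hsp90ab1 was 2.65 and 3.24 times that of Hsp90aa1 in Mettl3/14nKO and 2.81 and 2.97 times in wild-type libraries, so the order of the pair was the same in every library.

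**Figure D3:**
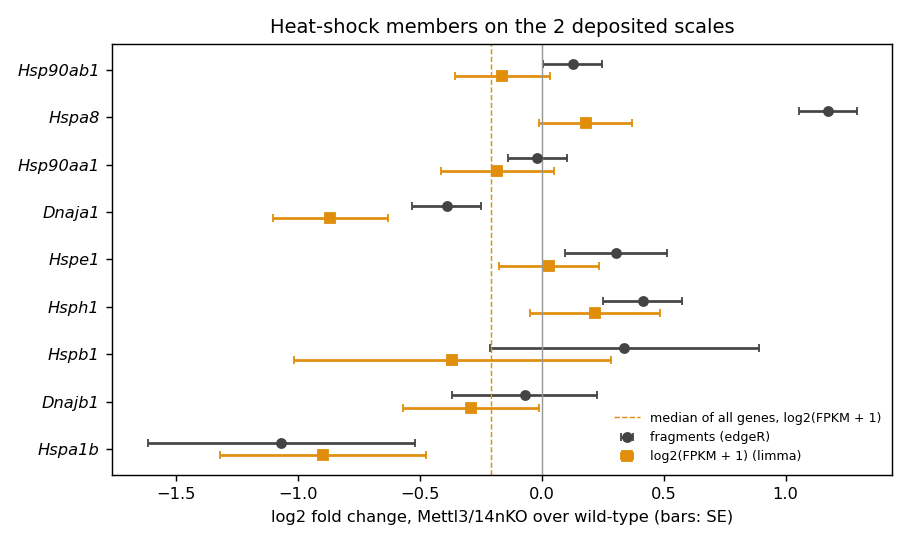
Log2 fold change of Mettl3/14nKO over wild-type for the 9 members that both fits kept, in fragments (grey circles, edgeR) and on the log2(FPKM + 1) scale (orange squares, limma), with bars for the SE. The dashed line is the median of all genes in FPKM (-0.21). The scales are farthest apart for Hspa8, at 1.17 in fragments and 0.18 in FPKM.

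Hspb1 varied widely between the Mettl3/14nKO libraries, whereas Hspe1 varied little. Hspb1 (ENSMUSG00000004951, chr5:135887919-135889563), the HSP27-type holdase that keeps unfolding proteins soluble, had 21.4 and 4.03 CPM in Mettl3/14nKO and 9.56 and 12.4 CPM in wild-type libraries. The Mettl3/14nKO libraries enclosed the wild-type ones, and the log2 fold change in fragments was 0.34 (SE 0.55) but -1.42 without Mettl3/14nKO replicate 1. In FPKM, Hspb1 had 14.0 and 2.21 in Mettl3/14nKO libraries and 6.63 and 9.47 in wild-type ones, with a log2 fold change of -0.37 (SE 0.65), which was 0.74 without Mettl3/14nKO replicate 2. Hspe1 (ENSMUSG00000073676), the co-chaperonin HSP10, works inside mitochondria with Hspd1 and so stands outside the label of cytosolic chaperones. It had 64.1 and 67.2 CPM in Mettl3/14nKO and 56.6 and 49.5 CPM in wild-type libraries, groups that did not overlap, with a log2 fold change of 0.30 (SE 0.21). Its FPKM of 51.3 and 44.5 in Mettl3/14nKO islets, against 47.7 and 45.9 in wild-type islets overlapped, at 0.03 (SE 0.21). The deposited locus of Hspe1 (chr1:55077835-55091307) covers both Hspe1 and its divergent neighbour Hspd1. Hspd1 had 192 and 210 CPM in Mettl3/14nKO and 197 and 189 CPM in wild-type libraries, which overlapped, and its edgeR log2 fold change was 0.05 (SE 0.14, adjusted p = 0.919).

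The order of the members by FPKM was nearly the same in all libraries. Hsp90ab1 ranked 42 and 36 among all symbols in Mettl3/14nKO libraries and 35 and 38 in wild-type ones, and Hspa8 ranked 49 and 39 in Mettl3/14nKO islets, against 52 and 54 in wild-type islets. Over the Mettl3/14nKO libraries the ranges of these 2 genes overlapped, and over the wild-type libraries they did not. Hsp90aa1 came next, and then Hspe1 and Dnaja1, whose order differed between the groups, with Hspe1 above Dnaja1 in Mettl3/14nKO and below it in wild-type libraries, without overlap in either. Hsph1 lay below them and overlapped only Hspb1 of Mettl3/14nKO, Hspb1 and Dnajb1 could not be ordered beyond their spread in either group, and Hspa1b and Hspa1a were lowest, at ranks 9876 to 14206. Hspa8 made up 33.5 and 36.6% of the summed FPKM of the 10 genes in Mettl3/14nKO islets, against 28.0 and 30.4% in wild-type islets. Together the 10 genes reached 3545 and 3599 CPM in Mettl3/14nKO and 2878 and 2714 CPM in wild-type libraries. Without Hspa8 the sums were 2385 and 2402 CPM in Mettl3/14nKO and 2346 and 2204 CPM in wild-type libraries, so most of the difference in summed CPM lay in that 1 gene. The summed FPKM of the 10 genes overlapped, with 838 and 699 in Mettl3/14nKO, against 815 and 807 in wild-type libraries, so the total was not higher on that scale.

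With edgeR, 1 of the 9 tested members was called higher at an adjusted p under 0.05, and 0 were called lower. Of all 10956 tested genes 2.10% were called higher (230) and 1.61% lower (176). Those 406 calls became 266 when Mettl3/14nKO replicate 1 was left out, 675 when Mettl3/14nKO replicate 2 was and 75 when wild-type replicate 2 was. With limma on log2(FPKM + 1), 0 of 9 members passed, against 0.00% of 12213 genes in either direction. At an unadjusted p under 0.05 stood 1 member and 1477 genes with limma, and 3 members and 1747 of 10956 genes with edgeR. Nothing is read from the members' counts, because the set was chosen with this contrast known. The median log2 fold change of the 9 members was 0.13 in fragments, against 0.00 for all genes, and -0.18 in FPKM, against -0.21 for all genes.

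Promoter letters were examined as a feature apart from the expression values. The members were named as heat-shock genes, some known for induction by heat-shock factor 1. Matches to its letters may thus follow from that naming, and their shares are a description only. Heat-shock factor 1 binds inverted repeats of a GAA unit, and the letters GAANNTTC (head-to-head) and TTCNNGAA (tail-to-tail) were searched. Each reads the same on both strands, N stands for any base, and matches to the 2 motifs may overlap. RefSeq promoter windows (GRCm38.p6) of 300 bases, from 250 before to 50 after each transcript start, were at hand for 7 members with 11 windows, and Hspa8, Hsp90aa1 and Hsp90ab1 were not among them. A match was found in 6 of the 7 genes, in some window, against 17.0% of 27025 genes with a window and 13.3% of the 8275 that edgeR also tested. Hspa1a and Hspa1b, whose windows are nearly the same, were counted as separate genes. A run of 3 units, in which GAANNTTC is followed by NNGAA or TTCNNGAA by NNTTC, was found for Hspe1 and Hsph1, 2 of 7, against 0.662% of all genes with a window. Dnajb1 had no match in either of its 2 windows, and in Dnaja1 1 of 3 windows held one. The stretches below, 5′ to 3′ on the gene's strand, are from the 6 genes with a match. They show the matches before the transcript start in capitals, with their neighbouring bases. These letters describe those genes apart from their levels. Those of Hspe1 and Hsph1 are kept short since they fall in annotated untranslated exon of Hspd1 and of Hsph1.
Hspe1, chr1:55088053-55088082, plus strand: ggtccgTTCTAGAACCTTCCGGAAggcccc
Hsph1, chr5:149636351-149636380, minus strand: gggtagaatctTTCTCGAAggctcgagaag
Hspa1a, chr17:34972229-34972284, minus strand: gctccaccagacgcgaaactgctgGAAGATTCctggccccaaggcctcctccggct
Hspa1b, chr17:34959311-34959366, minus strand: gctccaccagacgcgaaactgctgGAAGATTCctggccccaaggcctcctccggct
Dnaja1, chr4:40722320-40722375, plus strand: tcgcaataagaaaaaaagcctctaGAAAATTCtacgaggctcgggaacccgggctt
Hspb1, chr5:135887778-135887853, plus strand: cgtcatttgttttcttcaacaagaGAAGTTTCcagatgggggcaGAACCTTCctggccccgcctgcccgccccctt

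Hspe1 carried overlapping matches between 89 and 72 bases before its start. The stretches of Hspa1a and Hspa1b are the same letters at the same distance, with the match 104 to 97 bases before the start, and their full windows differ at 4 of 300 positions. The Dnaja1 stretch lies within an exon of the opposite non-coding gene Gm6297. The genes with matches did not share a direction between genotypes, since in CPM both libraries of Mettl3/14nKO were above wild-type for Hspe1 and Hsph1, below it for Hspa1a, Hspa1b and Dnaja1, and on both sides of it for Hspb1. A match is a description of letters and not evidence of binding.

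**Figure D4:**
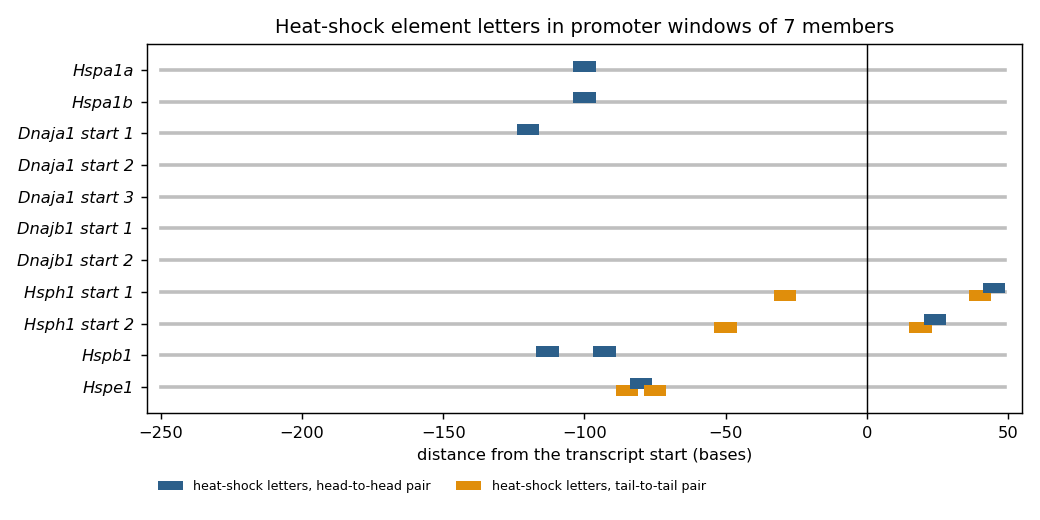
Positions of the heat-shock element letters in the promoter windows of 7 members, in bases from the transcript start, with 1 row per annotated start and negative values before it. Blue bars are head-to-head and orange bars tail-to-tail pairs. Matches lie before the start in Hspa1a, Hspa1b, Hspb1, Hspe1 and 1 start of Dnaja1, on both sides in Hsph1, and in neither window of Dnajb1.

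The wider chaperone network, 100 genes in 9 lists that hold none of the members, showed no called gene. Of the 89 that edgeR tested 0 were called in either direction, against 2.10% higher and 1.61% lower over all genes. At an unadjusted p under 0.05 stood 7 of the 89, against 1747 of all 10956 tested genes. DESeq2 also called 0. With limma 0 of 92 passed, against 0.00% in either direction, with 10 at an unadjusted p under 0.05, against 1477 of all 12213 genes. The median log2 fold change of the 89 genes was -0.03 in fragments, 38 were positive and 51 negative, and that of the 92 was -0.25 in FPKM against -0.21 for all genes. The only network gene called when a library was left out of edgeR was Ier5, an immediate-early gene that acts on heat-shock factor 1, lower without Mettl3/14nKO replicate 1 (log2 fold change -1.40, adjusted p = 0.0476). In the fit of all libraries it stood at -0.54 (SE 0.32, adjusted p = 0.473).

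Among 6 tested cytosolic HSP70 and HSP110 relatives the median log2 fold change was -0.15. Hspa4l, an HSP110 gene, had 74.0 and 99.5 CPM in Mettl3/14nKO and 92.4 and 109 CPM in wild-type libraries, which overlapped (log2 fold change -0.25, SE 0.19, edgeR adjusted p = 0.616). Hspa12a, a distant HSP70 relative, had 55.1 and 55.1 CPM in Mettl3/14nKO and 59.7 and 69.2 CPM in wild-type libraries, which did not overlap (-0.24, SE 0.21, adjusted p = 0.666). Neither passed the threshold.

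Among 16 tested cytosolic J-domain genes the median was -0.09, with 6 positive and 10 negative. Dnajc2, the J-protein partner of HSP70 at the ribosome, had 51.0 and 52.4 CPM in Mettl3/14nKO and 30.3 and 30.9 CPM in wild-type libraries. The groups did not overlap, and the log2 fold change was 0.75 (SE 0.25, edgeR adjusted p = 0.142). Dnajb6, which suppresses protein aggregation, had 60.8 and 73.9 CPM in Mettl3/14nKO and 95.6 and 90.3 CPM in wild-type libraries (-0.49, SE 0.19, adjusted p = 0.211). Of 8 tested nucleotide exchange factors and other HSP70 partners, the exchange factor gene Bag1 came nearest to the threshold. It had 91.3 and 82.0 CPM in Mettl3/14nKO and 59.7 and 56.3 CPM in wild-type libraries, without overlap (0.58, SE 0.19, adjusted p = 0.121). Bag6, which captures exposed membrane segments, stood at 0.22 (SE 0.13, adjusted p = 0.475).

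Among 19 tested HSP90 co-chaperones, 9 were positive and 10 negative, with a median of -0.03. Pih1d1, a subunit of the R2TP complex that works with HSP90, was at 9 and 4 fragments for Mettl3/14nKO, against 21 and 21 for wild-type (-1.16, SE 0.48, edgeR adjusted p = 0.248). Aarsd1 stood at -0.82 (SE 0.44, adjusted p = 0.397), also from few fragments. Only 4 of 9 further small heat-shock protein genes were tested. Hspb6 had a log2 fold change of -0.71 (SE 0.45, adjusted p = 0.513) and the crystallin gene Cryab one of 0.31 (SE 0.41, adjusted p = 0.800). Cryab had 37.8 and 12.1 CPM in Mettl3/14nKO and 19.1 and 23.5 CPM in wild-type libraries, so that its Mettl3/14nKO libraries lay on both sides of wild-type, as those of Hspb1 did.

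The 13 tested genes of the chaperonin TRiC, which folds actin and tubulin, and of its partner prefoldin had a median of -0.01. Cct7 had 97.8 and 101 CPM in Mettl3/14nKO and 119 and 157 CPM in wild-type libraries (-0.49, SE 0.17, edgeR adjusted p = 0.164), and Cct8 stood at -0.20 (SE 0.15, adjusted p = 0.609). Of 9 tested mitochondrial chaperone and protease genes, 7 were negative, with a median of -0.04. The mitochondrial HSP70 gene Hspa9 had 268 and 289 CPM in Mettl3/14nKO and 374 and 299 CPM in wild-type libraries (-0.28, SE 0.14, adjusted p = 0.374), and the protease gene Lonp1 stood at -0.22 (SE 0.17, adjusted p = 0.627).

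Of 4 tested heat-shock factors and regulators, 1 was positive and 3 negative, with a median of -0.23. The negative ones included Ier5, given above at -0.54. Hsf1, which encodes the factor that switches on heat-shock genes, was the positive one. It had 27.1 and 39.0 CPM (33 and 29 fragments) in Mettl3/14nKO and 19.1 and 24.7 CPM (24 and 40 fragments) in wild-type libraries. Its log2 fold change was 0.54 (SE 0.32, edgeR adjusted p = 0.474). Among 10 tested paralogues and partners in the endoplasmic reticulum the median was 0.04, with 5 positive and 5 negative. Hyou1, the HSP110 of that compartment, had 700 and 765 CPM in Mettl3/14nKO and 597 and 603 CPM in wild-type libraries (0.28, SE 0.12, adjusted p = 0.266). Its HSP90, Hsp90b1, had 926 and 1044 CPM in Mettl3/14nKO and 1127 and 1196 CPM in wild-type libraries (-0.24, SE 0.12, adjusted p = 0.370). The paralogues of the chaperone machines in other compartments thus stood on both sides of 0 in fragments.

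**Figure D5:**
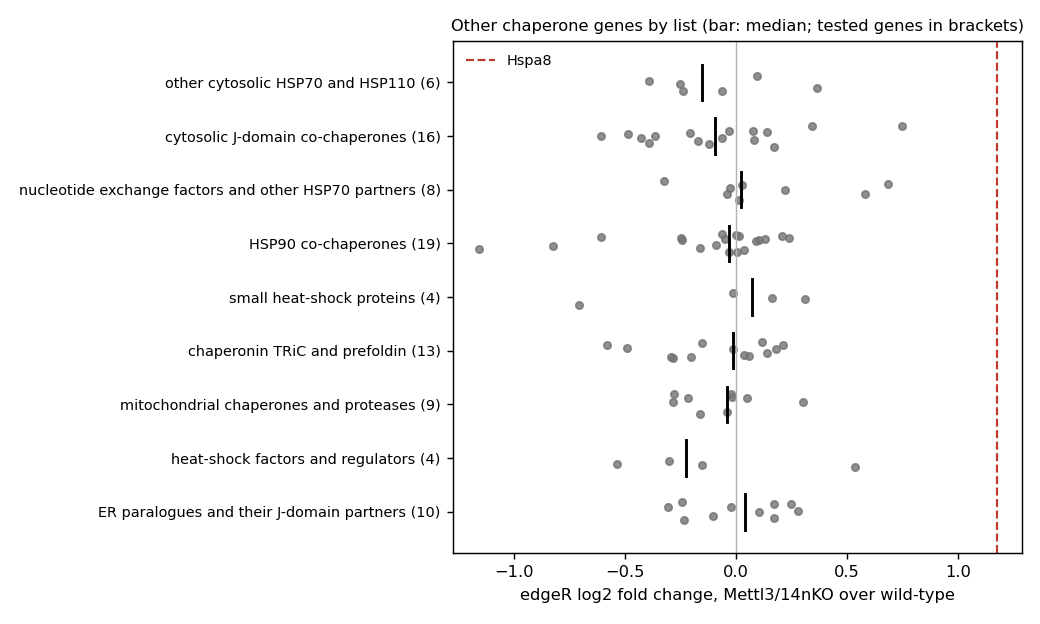
EdgeR log2 fold change, Mettl3/14nKO over wild-type, of the 89 tested chaperone network genes in 9 lists, 1 point per gene, spread vertically only for legibility. Black bars are list medians, from -0.23 to 0.07, and the dashed red line is Hspa8 at 1.17, which lies to the right of every point.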

How the data were processed

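Islet RNA of 4 libraries was depleted of ribosomal RNA and read as paired ends of 150 bases with a directional kit, per the labels' protocols. Per the submitters' processing notes, build mm10, Cufflinks, Cuffdiff, HISAT2 2.0.4 and cutadapt 1.9.3 were used. The release of the annotation, any filter and the strandedness of the counting are not given here. The deposited FPKM are the authors' values, per the file headers. The authors' estimated counts, deposited beside them, are not whole numbers, but 92.3 to 93.2% of values above 0 lay within 0.01 of a whole multiple of 1 step per library (0.968 and 1.331 in Mettl3/14nKO, 0.982 and 0.835 in wild-type). Division by the step and rounding gave fragments. The deposited length column equals the locus span for all 22564 genes and was used for nothing else.

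Genes of 1 symbol were summed. Fragments were tested in R 4.3.3 by the quasi-likelihood test of edgeR 4.0.16, with filterByExpr and TMM factors, and the SE of a log2 fold change was taken as its size divided by the square root of F. Limma 3.58.1 with an intensity trend was run on log2(FPKM + 1) where the mean over libraries reached 1 FPKM, and fold changes on that scale understate the change of low genes. DESeq2 1.42.0 was an alternative. Two-sided p-values were adjusted over all tested genes (Benjamini-Hochberg), with a threshold of 0.05. An exact permutation test of 2 against 2 samples cannot go below p = 0.333. Implied lengths came from a Theil-Sen line (scipy 1.17.1) of count per FPKM on annotated length, in genes with at least 10 fragments per library. Coordinates are those of the deposited loci, 1-based, and overlapping genes and transcripts are from GENCODE M21 (mm10). Promoters are from RefSeq. Scripts were tested on simulated fragments. Of simulated 2-fold changes edgeR recovered 50%, DESeq2 28% and limma 10%, and of 4-fold changes 88%, 76% and 67%. A count of 0 calls therefore does not show that levels were unchanged.

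The members and the chaperone lists were chosen with earlier results of these data known. The named genes were all members, every list gene past the edgeR threshold and the 2 with the smallest edgeR p of each list, and the 5 genes most like Hspa8 on each of 2 measures. Hspd1, Smu1 and Gm20481 were named because they overlap members, and Ier5 is also named for a call in 1 alternative.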

Additional observations from a re-analysis of the deposited data

How the results depend on the processing

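The edgeR calls numbered 406 in all, 162 with DESeq2, 857 without a filter on low counts and 75 to 675 when 1 library was left out, while median-ratio factors gave 406. The limma calls numbered 0 in all, 350 with a replicate block, and 0 to 11 when 1 library was left out. With edgeR the replicate block gave 381 calls. The labels do not say that equal numbers mark a shared litter or day, so the numbers were not taken as pairs. Across the 10956 genes tested by edgeR, same-numbered libraries did not deviate together (r = 0.0232). How far that holds in FPKM, where the block raised the limma calls from 0 to 350, is not shown. The calls among chaperone network genes ranged from 0 to 1 when 1 library was left out and were 0 under the other edgeR alternatives and DESeq2. With limma, the smallest adjusted p among these genes was 0.231, passed 0.05 only with the replicate block (0.00206), and was 0.167 to 0.620 when 1 library was left out. The log2 fold change of Hspa8 was 1.14 to 1.21 in fragments and 0.11 to 0.25 in FPKM when 1 library was left out, and 0.39 in FPKM with centred libraries. Its FPKM per fragment, relative to the median gene, differed by -0.76 on the log2 scale. The deposited count column gives the same value by construction, since 1 constant per library cancels. In fragments Hsp90aa1, Dnajb1 and Hspb1 changed sign in 1 of 8 alternatives each, and in FPKM Hsp90ab1, Hsph1, Hspb1 and Hspe1 in 1 of 8 and Hsp90aa1 in 2 of 8. The cause of these changes was not tested. Depth limits Hspa1a, Hspa1b and Hspb1 most.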
